A study of Mus musculus with 16 samples.

Results

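The 10 genes described here encode the insulin-like growth factors Igf1 and Igf2, their receptors Igf1r and Igf2r, and the binding proteins Igfbp2, Igfbp3, Igfbp4, Igfbp5, Igfbp6 and Igfbp7. They were taken by gene symbol, 1 row each, from the 55487 genes counted in every library. Left ventricular tissue, cut between base and apex, was sequenced as RNA from 16 mice of the C57Bl/6J strain at an age of 24 months. The 8 multiparous mice had been pregnant more than 3 times and the 8 virgin mice served as their age-matched comparison. Neither group received a treatment, both were of the same inbred strain, and the time since the last pregnancy was not stated in the labels. The comparison asks what parity by itself leaves in the transcriptome of the old heart. Each library is labelled as a separate mouse. Library names carry codes whose meaning is not given: 4 multiparous libraries hold MP, 4 hold P, and all 8 virgin libraries hold AA. Parity and the difference between these codes therefore cannot be told apart.

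Insulin-like growth factors are secreted peptides. IGF1 is made in the liver under growth hormone and also locally, and acts through the receptor tyrosine kinase IGF1R. In the heart this route is known for promoting the growth and survival of cardiomyocytes. IGF2 uses the same receptor, while IGF2R, which is also the cation-independent mannose 6-phosphate receptor, carries IGF2 to lysosomes for breakdown. IGFBP2 to IGFBP6 bind the growth factors with high affinity and set how much of them reaches a receptor. Proteases that cut the binding proteins release the ligand. IGFBP7 binds the growth factors only weakly and is best known as a secreted protein of vascular endothelium.

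The deposited values are read counts per gene. Between 34560606 and 58890976 reads were counted to genes in 15 libraries, and 228325238 in virgin 8. Levels are given as CPM, read counts scaled to a common library total by TMM, in which 3 reads are worth 0.0134 to 0.0844 CPM depending on the library. Summed markers of cardiomyocytes were 46781 to 54508 CPM in multiparous hearts and 44775 to 59320 CPM in virgin hearts, as the tissue label says. Markers of kidney tubule and liver were also counted. Their sums were 0.583 to 7.26 CPM (kidney tubule) and 4.49 to 314.5 CPM (liver) in multiparous hearts, against 2.71 to 49.4 CPM (kidney tubule) and 3.34 to 228.2 CPM (liver) in virgin hearts, where Ttr alone made up 96.5% of the highest liver sum. In bulk tissue, fewer cells of a type and less RNA per cell cannot be told apart.

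No gene of the family passed edgeR's test between multiparous and virgin hearts. The smallest p-values belonged to 3 binding proteins, Igfbp3, Igfbp6 and Igfbp4, whose levels were 1.41, 1.27 and 1.20 times as high in multiparous hearts. Both receptors and Igf1 lay close to equal means, and Igf2 had a lower mean in multiparous hearts, with a log2 fold change of -0.30. Of the 9 genes with enough reads to test, 0 passed an adjusted p of 0.05 in edgeR's quasi-likelihood test, where 0.0112% of all 17813 genes tested passed. DESeq2 called 1 of the 9, Igfbp3, beside 130 of all 17813 genes. For limma voom it was 0 of the 9, beside 3 of all 17813 genes. At an unadjusted p under 0.05 the count was 3 of 9, all of them binding proteins with the higher mean in multiparous hearts, beside 8.12% of all genes in either direction and 4.04% with the higher mean in multiparous hearts. The higher mean was in multiparous hearts for 6 of the 9, beside 48.6% of all genes. The median log2 fold change was 0.05 over the 9 genes, 0.26 over the 5 binding proteins tested and -0.003 over all genes. The libraries of the groups overlapped for each of the 10 genes. Over all genes, 0.0337% had groups that did not overlap.

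**Figure D1:**
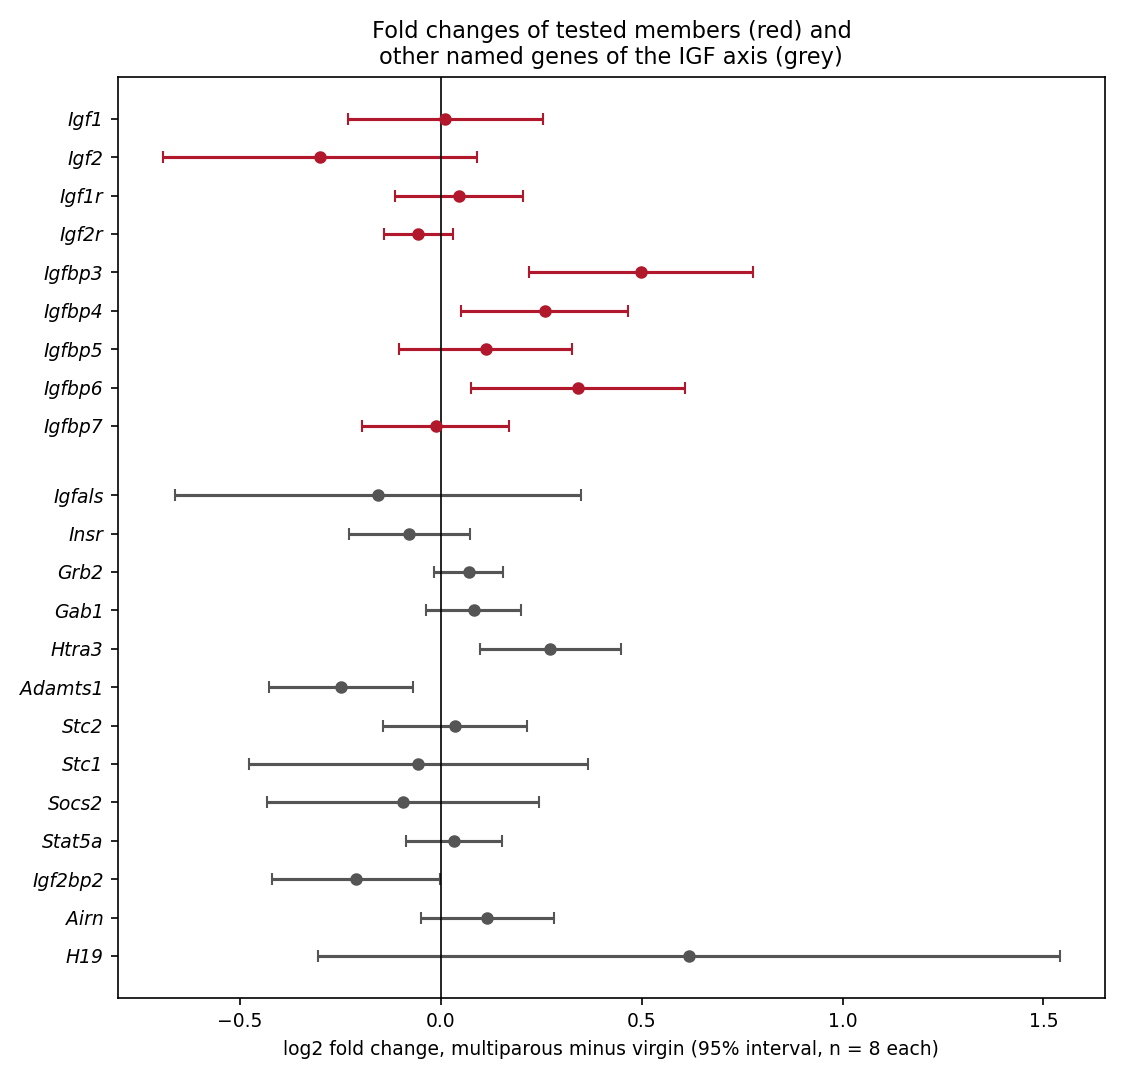
Log2 fold change of multiparous over virgin hearts (x axis, log2 units) for the 9 genes of the family that were tested (red) and other named genes of the IGF axis (grey). Bars are 95% intervals from edgeR, and 0 marks equal levels. The intervals of Igfbp3, Igfbp4 and Igfbp6 lie above 0, with log2 fold changes of 0.50, 0.26 and 0.34. Those of the other tested genes of the family span 0. Among the grey genes, the interval of Htra3 lies above 0 and those of Adamts1 and Igf2bp2 lie below 0.

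The sequences before the start sites of these 3 binding protein genes are shown because these genes had an unadjusted p under 0.05 between the groups. Each is the 250 bases before the RefSeq start, from RefSeq on GRCm38.p6, written 5′ to 3′ on the gene's strand. Capitals mark matches to 3 motifs searched on both strands: the TATA box written TATAAA, its variant TATATA, and the box CCAAT, which do not overlap here.
Igfbp3, minus strand, chr11:7213924-7214173: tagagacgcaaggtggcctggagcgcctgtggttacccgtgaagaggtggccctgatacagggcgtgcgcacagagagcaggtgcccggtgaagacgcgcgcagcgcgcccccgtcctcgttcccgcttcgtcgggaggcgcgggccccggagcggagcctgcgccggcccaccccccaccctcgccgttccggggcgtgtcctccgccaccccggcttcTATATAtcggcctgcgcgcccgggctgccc
Igfbp4, plus strand, chr11:99040994-99041243: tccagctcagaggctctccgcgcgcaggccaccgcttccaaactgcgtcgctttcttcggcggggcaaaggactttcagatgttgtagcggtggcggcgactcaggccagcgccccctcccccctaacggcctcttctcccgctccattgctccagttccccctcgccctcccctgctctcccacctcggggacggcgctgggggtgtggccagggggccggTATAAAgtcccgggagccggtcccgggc
Igfbp6, plus strand, chr15:102143936-102144185: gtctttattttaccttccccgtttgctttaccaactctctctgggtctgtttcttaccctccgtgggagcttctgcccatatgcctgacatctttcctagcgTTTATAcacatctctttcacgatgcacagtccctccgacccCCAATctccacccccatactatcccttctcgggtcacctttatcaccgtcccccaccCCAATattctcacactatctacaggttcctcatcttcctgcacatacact
Igfbp3 held TATATA, whose first base lies 30 bases before the start, and Igfbp4 held TATAAA 28 bases before it. In Igfbp6, CCAAT lay 107 and 50 bases before the start, and TATAAA lay on the other strand 148 bases before it. The Igfbp6 start in RefSeq is upstream of the gene's start in GENCODE, at 102144362 on chromosome 15. Windows of this length held TATAAA in 12.4%, TATATA in 5.25% and CCAAT in 33.8% of 32851 RefSeq promoters. The GC-box core GGGCGG, present on either strand in 32.7% of promoters, had no match in these 3 windows or in that of Igfbp5, and had 4 in that of Igfbp7. Guanine and cytosine made up 73.2% of the bases in the Igfbp3 window, 69.2% for Igfbp4 and 49.6% for Igfbp6, against a median of 52.4% over all promoters. A match is a description of the letters and not evidence of a bound site.

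Igf1 (ENSMUSG00000020053.18, GRCm38 chr10:87858265-87937042, plus strand) encodes the ligand that signals through IGF1R. Its lowest, median and highest levels were 18.5, 27.8 and 33.6 CPM in multiparous hearts, and 21.2, 25.6 and 35.5 CPM in virgin hearts. The groups covered nearly the same range. Means were 26.7 ± 5.0 CPM in multiparous hearts and 26.5 ± 4.4 CPM in virgin hearts (SD, n = 8 each). Its log2 fold change was 0.01 with a 95% interval of -0.23 to 0.25 (SE 0.12, edgeR adjusted p = 0.99).

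Igf2 (ENSMUSG00000048583.16, chr7:142650766-142666816, minus strand) encodes the second ligand, an imprinted growth factor that is abundant in the fetus and low in adult mouse tissue. Its levels were 1.02, 2.02 and 2.54 CPM at the lowest, median and highest in multiparous hearts, and 1.34, 2.42 and 3.34 CPM in virgin hearts. These levels rest on 38 to 147 reads in the multiparous libraries. Only 1 of the 8 multiparous hearts, number 1, lay above the virgin mean, yet the groups overlapped over most of their range. Means were 1.93 ± 0.51 CPM in multiparous hearts and 2.37 ± 0.63 CPM in virgin hearts (SD, n = 8 each). On the log2 scale the fold change was -0.30 with a 95% interval of -0.69 to 0.09 (SE 0.19, edgeR adjusted p = 0.74). Of the exonic bases of Igf2, 64.5% are shared with other annotated genes, mostly with Gm49394 on the same strand, which averaged 0.25 reads per library. Reads that fall on shared bases may not be counted to either gene, so its level is uncertain.

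Igf1r (ENSMUSG00000005533.10, chr7:67952827-68233668, plus strand) encodes the signalling receptor for both ligands. It held 65.9, 74.5 and 86.8 CPM at the lowest, median and highest in multiparous hearts, and 59.9, 72.5 and 86.9 CPM in virgin hearts. The upper ends of the groups nearly coincided. The difference was 0.05 on the log2 scale, with a 95% interval of -0.11 to 0.20 (SE 0.08, edgeR adjusted p = 0.93).

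Igf2r (ENSMUSG00000023830.14, chr17:12682406-12769664, minus strand) encodes the clearance receptor. It varied least of the family. Its levels were 377.1, 414.2 and 434.6 CPM at the lowest, median and highest in multiparous hearts, and 393.4, 427.2 and 473.6 CPM in virgin hearts. In 1 of the 8 multiparous hearts, number 2, the level was above the virgin mean. Means were 411.8 ± 17.3 CPM in multiparous hearts and 428.1 ± 25.3 CPM in virgin hearts (SD, n = 8 each), and the log2 fold change was -0.06 with a 95% interval of -0.14 to 0.03 (SE 0.04, edgeR adjusted p = 0.79).

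Igfbp3 (ENSMUSG00000020427.11, chr11:7206086-7213923, minus strand) encodes the main carrier of the growth factors in blood, where it forms a complex with the acid-labile subunit. It held 24.4, 30.8 and 38.6 CPM at the lowest, median and highest in multiparous hearts, and 17.1, 21.5 and 31.5 CPM in virgin hearts. All 8 multiparous hearts lay above the virgin mean and 4 lay above the highest virgin heart, number 5. The other virgin hearts held at most 24.3 CPM, below each multiparous heart. Means were 31.01 ± 5.96 CPM in multiparous hearts and 21.99 ± 4.95 CPM in virgin hearts (SD, n = 8 each). The fold was 1.41 with a 95% interval of 1.16 to 1.71, a log2 fold change of 0.50 (SE 0.13). Its unadjusted p in edgeR was 0.0015, place 126 among all genes, and its adjusted p was 0.21. DESeq2 gave the same gene a log2 fold change of 0.50 with an adjusted p of 0.033, and there it passed as the only gene of the family.

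Igfbp4 (ENSMUSG00000017493.12, chr11:99041244-99054392, plus strand) encodes a binding protein known mainly for restraining the growth factors until the protease PAPP-A cuts it. Its levels were 65.0, 81.5 and 114.7 CPM at the lowest, median and highest in multiparous hearts, and 58.2, 71.5 and 75.8 CPM in virgin hearts. The multiparous hearts were spread more widely, with 5 of the 8 above the highest virgin heart and number 6 standing highest. Means were 83.0 ± 16.6 CPM in multiparous hearts and 69.4 ± 6.2 CPM in virgin hearts (SD, n = 8 each). The log2 fold change was 0.26 (SE 0.10), with an edgeR unadjusted p of 0.018 and an adjusted p of 0.48.

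Igfbp6 (ENSMUSG00000023046.6, chr15:102144362-102149511, plus strand) encodes the binding protein that prefers IGF2 over IGF1. It held 4.485, 7.421 and 8.502 CPM at the lowest, median and highest in multiparous hearts, and 4.295, 5.597 and 6.615 CPM in virgin hearts. Here 5 of the 8 multiparous hearts exceeded the highest virgin heart and the other 3 lay within the virgin range. Means were 6.96 ± 1.39 CPM in multiparous hearts and 5.51 ± 0.92 CPM in virgin hearts (SD, n = 8 each). The log2 fold change was 0.34 (SE 0.13), with an edgeR unadjusted p of 0.015 and an adjusted p of 0.45.

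Igfbp5 (ENSMUSG00000026185.8, chr1:72857932-72874884, minus strand) encodes a binding protein that attaches to extracellular matrix. It had the most reads of the binding proteins. Its levels were 201.1, 224.9 and 283.7 CPM at the lowest, median and highest in multiparous hearts, and 165.6, 206.7 and 277.5 CPM in virgin hearts. Virgin hearts reached lower values, and the upper ends were close. The log2 fold change was 0.11 with a 95% interval of -0.10 to 0.33 (SE 0.10, edgeR adjusted p = 0.84).

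Igfbp7 (ENSMUSG00000036256.13, chr5:77349240-77408041, minus strand) had 47.3, 53.8 and 63.6 CPM at the lowest, median and highest in multiparous hearts, and 41.9, 55.0 and 64.1 CPM in virgin hearts. The virgin hearts enclosed the multiparous range. The gene shares 85 exonic bases with Polr2b on the opposite strand, and how strand was treated in counting is unknown. On the log2 scale the difference was -0.01, with a 95% interval of -0.20 to 0.17 (SE 0.09, edgeR adjusted p = 0.99).

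**Figure D2:**
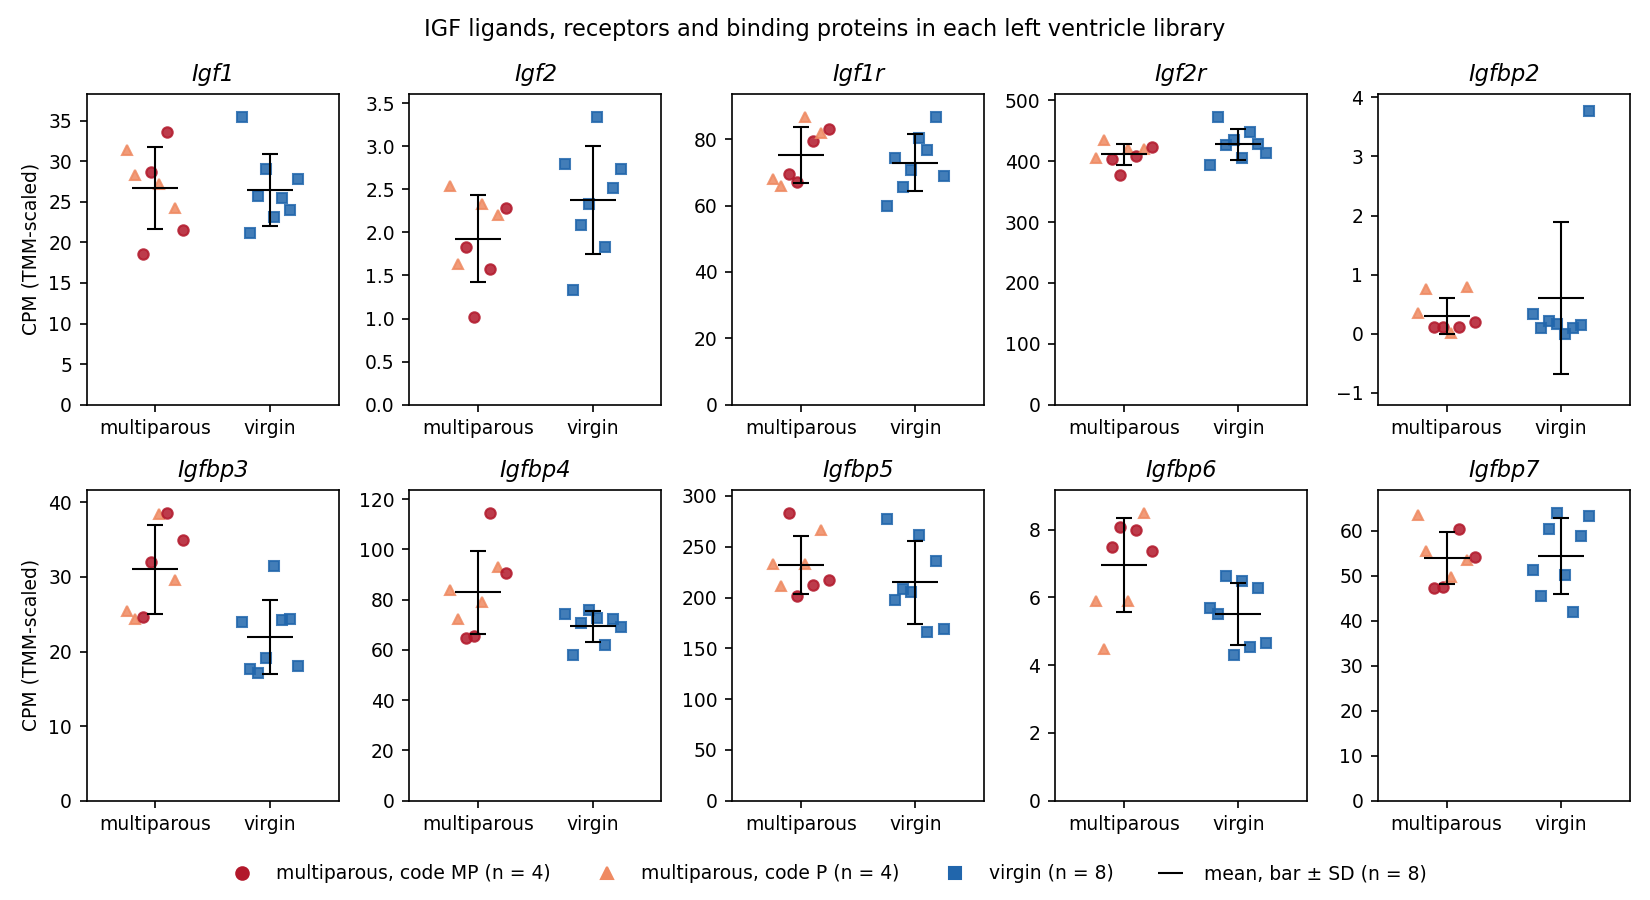
CPM (y axis, linear, 1 panel per gene) of each of the 10 genes in every library, multiparous hearts left and virgin hearts right, with the mean and SD as bar and whisker; MP-coded and P-coded multiparous hearts have markers of their own. Igfbp3 is at 24.4 CPM or more in all 8 multiparous hearts, and virgin 8 stands apart at 3.76 CPM in the Igfbp2 panel.

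Igfbp2 (ENSMUSG00000039323.18, chr1:72824503-72852474, plus strand) encodes a binding protein that is abundant in liver and in blood. It had too few reads to be tested. Multiparous libraries held 1 to 42 reads, virgin libraries 1 to 7 held 0 to 16, and virgin 8, the deepest library, held 841. As levels these were 0.0171, 0.160 and 0.790 CPM at the lowest, median and highest in multiparous hearts, and 0, 0.162 and 3.76 CPM in virgin hearts. The library with no read, virgin 5, allows a level of up to 0.0727 CPM, counting error only. Medians were thus nearly equal, and 1 library set the virgin mean. The means were 0.306 ± 0.304 CPM in multiparous hearts (SD, n = 8) and 0.605 ± 1.280 CPM in virgin hearts (SD, n = 8), or 0.154 ± 0.106 CPM in virgin hearts without virgin 8 (SD, n = 7).

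Igfbp2 was set beside the summed CPM of the 8 liver markers (Alb, Apoa1, Apoh, Ttr, Serpina1a, Fgb, Cyp2e1 and Ahsg). In 5 libraries, multiparous 1, 2, 7 and 8 and virgin 1, the liver sum was 24.9 to 314.5 CPM, of which Ttr made up at most 4.49%, and Igfbp2 was 0.197 to 0.790 CPM. Virgin 8 differed from these. Its liver sum of 228.2 CPM was 96.5% Ttr, the transthyretin gene, at 220.2 CPM, and its other 7 liver markers summed to 8.00 CPM, within the range of the libraries poor in liver markers. In those 10 libraries the liver sum was 3.34 to 9.69 CPM and Igfbp2 was 0 to 0.222 CPM. The highest Igfbp2 level thus went with Ttr alone, while multiparous 1, 2 and 7 and virgin 1, next in Igfbp2, were rich in Alb and the other liver markers. None of the 8 markers was at 0 across a group. The part of liver transcripts in the Igfbp2 level was not tested. The dividing value of 20 CPM was chosen after the sums were seen.

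**Figure D3:**
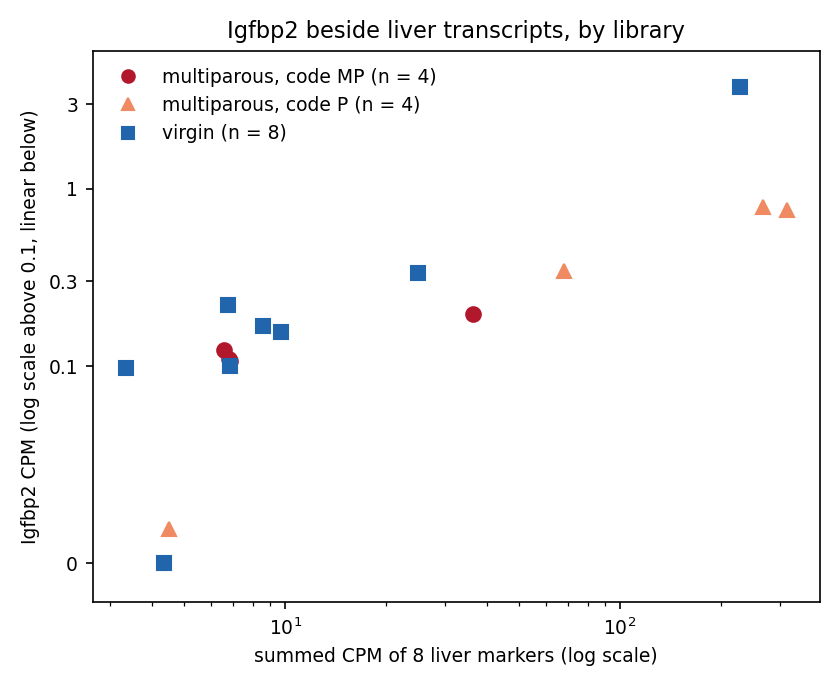
Igfbp2 level (y axis, CPM) against the summed level of 8 liver markers (x axis, CPM, log scale) in the 16 libraries, multiparous and virgin hearts with markers of their own. Igfbp2 is 0.197 to 3.76 CPM in the 6 libraries with liver sums of 24.9 CPM or more and at most 0.222 CPM in the other 10; the library at 3.76 CPM is virgin 8, whose sum is 96.5% Ttr.

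Fibroblasts are a known source of several binding proteins in the heart, and their markers were followed beside them. The summed level of 10 fibroblast markers was 1463 to 2218 CPM in multiparous hearts, with a median of 1889 CPM, and 1351 to 1854 CPM in virgin hearts, with a median of 1576 CPM. Gsn was the largest part of this sum, with means of 1013 CPM in multiparous hearts and 781.1 CPM in virgin hearts. The sum therefore follows Gsn more than any other marker. Of the 10 markers, 4 had a higher multiparous mean at an unadjusted p under 0.05 in edgeR, beside 4.04% of all genes. The multiparous mean was the higher for 8 of the 10, beside 48.6% of all genes. It was the lower for Col1a1 and Col1a2. Of the 10, 0 passed the adjusted test in edgeR or limma voom and 2 passed in DESeq2, which called 130 of all 17813 genes. No marker was at 0 across a group. Endocardial markers also had higher means in multiparous hearts, 5 of the 5 tested, with sums of 101.9 to 145.2 CPM in multiparous hearts and 70.1 to 147.2 CPM in virgin hearts. Kidney tubule markers had lower means in multiparous hearts, 8 of the 8 tested, of which 0 passed in edgeR and 7 in DESeq2. All 8 had an unadjusted p under 0.05 in edgeR, beside 4.09% of all genes in that direction. Means were also higher in multiparous hearts for 8 of 8 macrophage and 5 of 6 mesothelial markers, 0 of them under that p. They were lower for 8 of 8 cardiomyocyte markers and mixed for endothelial, smooth muscle and pericyte markers. Multiparous 6 had the highest fibroblast sum of all libraries and also the highest Igfbp3 and Igfbp4 levels.
With the fibroblast sum as a covariate in edgeR, the log2 fold change was 0.26 for Igfbp3, 0.03 for Igfbp4 and 0.16 for Igfbp6. Each lay nearer to 0 than without it, and 0 of the 3 stayed under an unadjusted p of 0.05 (the adjusted p was 1.00 for each). Igfbp5 went the other way, from 0.11 to 0.13. Over all 17813 genes, 1447 were under that p in edgeR without a covariate, 800 with the fibroblast sum and 1166 with the kidney tubule sum. With the kidney tubule sum as a covariate, the log2 fold change was 0.33 for Igfbp3, 0.26 for Igfbp4 and 0.44 for Igfbp6. Of these genes, Igfbp6 alone stayed under an unadjusted p of 0.05. In the same fit the log2 fold change of Igf2 was -0.70 (edgeR unadjusted p = 0.022, adjusted p = 0.71), further from 0 than without a covariate. With the liver sum, chosen after the data were seen, the log2 fold changes were 0.56 for Igfbp3, 0.25 for Igfbp4 and 0.39 for Igfbp6. That sum includes Ttr, which made up 96.5% of it in virgin 8, and the sum without Ttr was not used as a covariate. Whether the binding proteins changed within fibroblasts was not tested.

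**Figure D4:**
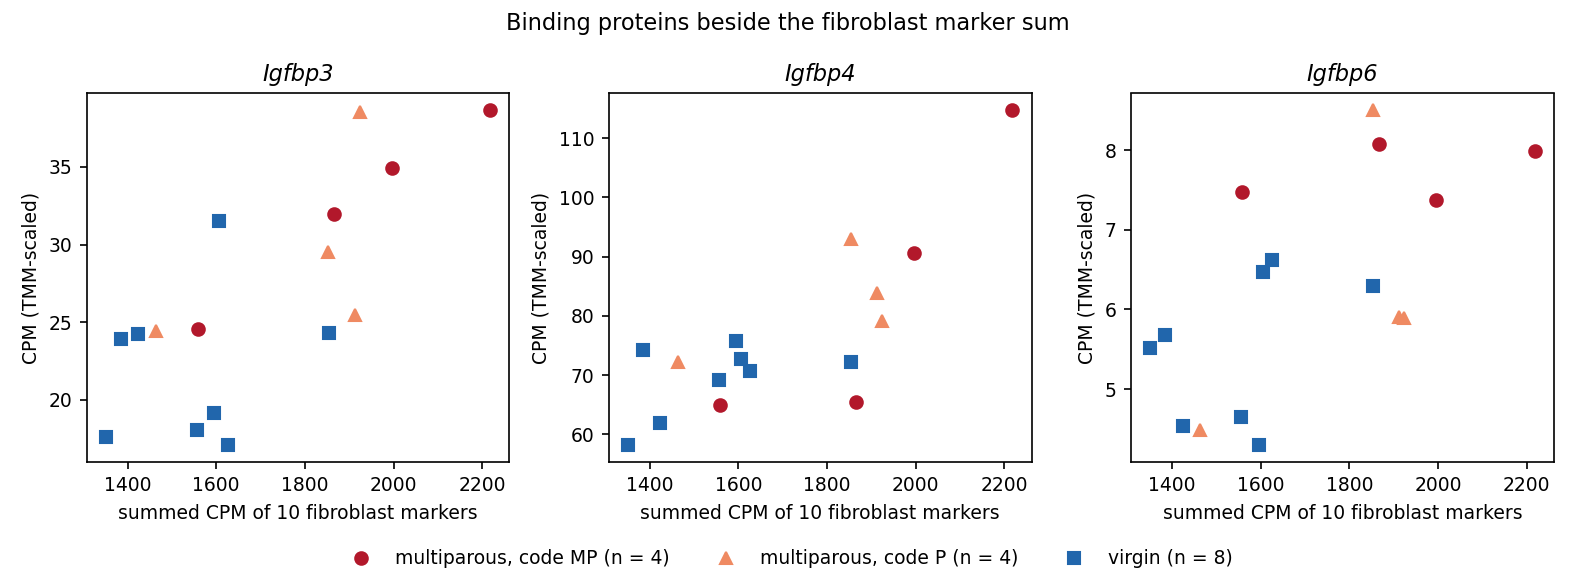
CPM of Igfbp3, Igfbp4 and Igfbp6 (y axes) against the summed CPM of 10 fibroblast markers (x axes) in each library, multiparous and virgin hearts with markers of their own. Fibroblast sums run from 1463 to 2218 CPM in multiparous hearts and from 1351 to 1854 CPM in virgin hearts. Gsn is the largest part of the sum. Multiparous 6 lies at the upper right for Igfbp3 and Igfbp4.

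The remaining genes of the axis were followed as a list of 30, of which 24 were tested. Means were higher in multiparous hearts for 13 and lower for 11, with a median log2 fold change of 0.02. None passed the adjusted test in edgeR, DESeq2 or limma voom, 0 of 24 in each, and in edgeR 3 had an unadjusted p under 0.05, 1 with a higher and 2 with a lower mean in multiparous hearts (4.09% of all genes for the lower direction).
Proteases that act on binding proteins held 2 of these 3. Htra3, a secreted serine protease, held 53.9, 66.8 and 76.4 CPM at the lowest, median and highest in multiparous hearts, and 43.9, 54.2 and 63.5 CPM in virgin hearts. Its log2 fold change was 0.27 (SE 0.08, edgeR unadjusted p = 0.0044, adjusted p = 0.29), and it was 0.04 with the fibroblast sum as a covariate. Adamts1, a metalloprotease, held 28.9, 37.3 and 43.6 CPM in multiparous hearts, and 39.1, 43.5 and 51.9 CPM in virgin hearts. Its log2 fold change was -0.25 (SE 0.09, unadjusted p = 0.0090, adjusted p = 0.38). For both proteases the groups overlapped, with multiparous hearts toward the upper end for Htra3 and toward the lower end for Adamts1.
The third was Igf2bp2, which encodes a protein that binds Igf2 mRNA. It averaged 6.27 ± 1.16 CPM in multiparous hearts and 7.26 ± 0.48 CPM in virgin hearts (SD, n = 8 each), a log2 fold change of -0.21 (edgeR unadjusted p = 0.047, adjusted p = 0.61).

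In edgeR, no other named gene of the axis reached an unadjusted p of 0.05. Igfals, the acid-labile subunit that joins IGFBP3 in blood, averaged 7.69 CPM in multiparous hearts and 8.60 CPM in virgin hearts. The insulin receptor gene Insr averaged 351.3 CPM in multiparous hearts and 371.2 CPM in virgin hearts, with a log2 fold change of -0.08. The adaptors of receptor signalling Grb2 and Gab1 had log2 fold changes of 0.07 and 0.08. Among inhibitors of the PAPP-A proteases, the stanniocalcins, Stc2 averaged 16.8 CPM in multiparous hearts and 16.4 CPM in virgin hearts, and Stc1 averaged 2.77 CPM in multiparous hearts and 2.88 CPM in virgin hearts. In the growth hormone arm, which drives Igf1 in the liver, the transcription factor gene Stat5a and the feedback inhibitor gene Socs2 had log2 fold changes of 0.03 and -0.09.
Of the imprinted noncoding neighbours, Airn, which lies antisense to Igf2r and silences it on the paternal chromosome in mouse tissues, averaged 14.8 CPM in multiparous hearts and 13.7 CPM in virgin hearts. H19, which shares the imprinted domain of Igf2, averaged 30.1 ± 9.0 CPM in multiparous hearts and 19.7 ± 16.1 CPM in virgin hearts (SD, n = 8 each). Virgin hearts spanned 1.58 to 42.4 CPM and enclosed nearly all of the 15.8 to 42.5 CPM of multiparous hearts. Its log2 fold change was 0.62 with a 95% interval of -0.31 to 1.54 (SE 0.44, edgeR adjusted p = 0.79), and limma voom gave 1.17 (unadjusted p = 0.020, adjusted p = 0.49). Igfbp1, a binding protein of liver, held 0 to 0.132 CPM in multiparous hearts and 0 to 0.125 CPM in virgin hearts and was not tested.

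Since the codes MP and P divide the multiparous libraries, each was also set against the virgin hearts and against the other. The 2 comparisons with virgin hearts share the virgin libraries. Igfbp3 averaged 32.5 ± 6.0 CPM in MP-coded hearts and 29.5 ± 6.4 CPM in P-coded hearts (SD, n = 4 each), with log2 fold changes over virgin hearts of 0.57 and 0.42. For Igfbp4 the means were 83.9 ± 23.8 CPM in MP-coded hearts and 82.0 ± 8.7 CPM in P-coded hearts (SD, n = 4 each), with log2 fold changes of 0.28 and 0.24. Set against each other, MP-coded over P-coded hearts differed by 0.14 for Igfbp3, with a 95% interval of -0.20 to 0.49, and by 0.04 for Igfbp4, with an interval of -0.32 to 0.40, so neither difference between the codes was larger than its error.
For Igfbp6 the values lay further apart. MP-coded hearts held 7.47, 8.08, 7.99 and 7.37 CPM, and P-coded hearts held 5.90, 4.49, 5.90 and 8.50 CPM. Every MP-coded heart exceeded the highest virgin heart, while 3 of the 4 P-coded hearts fell within the virgin range. How many of all genes set these 4 MP-coded hearts apart from the virgin hearts was not counted, so this separation cannot be called particular to Igfbp6. The log2 fold change over virgin hearts was 0.50 for MP-coded hearts (SE 0.12, edgeR adjusted p = 0.28) and 0.17 for P-coded hearts (SE 0.16, adjusted p = 0.85). Between the codes, MP-coded over P-coded hearts gave 0.32 for Igfbp6, with a 95% interval of -0.03 to 0.67 (SE 0.16, edgeR adjusted p = 0.49). Without multiparous 2 that value was 0.20, and without multiparous 7 it was 0.50 (edgeR adjusted p = 0.74 and 0.17). Igf2 averaged 1.67 CPM in MP-coded hearts and 2.18 CPM in P-coded hearts, with log2 fold changes over virgin hearts of -0.50 and -0.13.
Over the family, 0 of the 9 genes tested passed between the codes in edgeR, DESeq2 or limma voom, and in edgeR 0 of 9 had an unadjusted p under 0.05, beside 0.121% and 11.0% of all 18123 genes. Among multiparous hearts, Igfbp2 was highest in the libraries with the highest liver sums. MP-coded hearts held 0.107 to 0.197 CPM of Igfbp2 with liver sums of 6.58 to 36.3 CPM. P-coded multiparous 1, 2 and 7 held 0.345, 0.759 and 0.790 CPM with liver sums of 67.9, 314.5 and 267.8 CPM, and P-coded multiparous 5 held 0.0171 CPM with a liver sum of 4.49 CPM. Igfbp2 had too few reads to test between the codes with all 8 libraries, and enough in 5 of the fits that left out 1 library. It passed the filter there through P-coded multiparous 1, 2 and 7, where it was high, with 20, 33 and 42 reads. Multiparous 5, with 1 read, was the only P-coded heart low in Igfbp2. These fits therefore cannot decide whether Igfbp2 differs between the codes. Without multiparous 5 the log2 fold change of Igfbp2 for MP-coded over P-coded hearts was -2.22 (edgeR adjusted p = 0.032). Without multiparous 3, 4, 6 or 8 it was -1.72, -1.72, -1.77 and -2.03, with edgeR adjusted p-values of 0.57, 0.55, 0.43 and 0.45. The part of liver transcripts in those values was not tested.

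Levels of different genes were compared per length as TPM, counts divided by exon length and scaled to a common total, over all 16 libraries. Igf2r and Igfbp7 had the highest means, 96.1 ± 6.2 TPM and 95.8 ± 14.6 TPM (SD, n = 16), and Igf2r exceeded Igfbp7 in 9 of the 16 libraries, so the order of these 2 was not clear. Igfbp5 followed at 79.6 ± 14.5 TPM, below Igfbp7 in 12 libraries. Igfbp4 stood at 37.1 ± 8.9 TPM and Igfbp3 at 18.2 ± 5.5 TPM, and each of these steps held in all 16 libraries. Igfbp6 at 12.02 ± 3.03 TPM and the receptor Igf1r at 9.42 ± 1.29 TPM came next, with Igfbp6 the higher in 14 libraries. When each gene was divided by its longest transcript instead of all its exons, these 2 changed places.
The ligands came near the end of the order. Igf1 held 5.746 ± 1.188 TPM and Igf2 0.801 ± 0.226 TPM (SD, n = 16), and only between these neighbours did the ranges over libraries not overlap. Counted over the 2029 exonic bases that Igf2 does not share, its level was 2.26 ± 0.64 TPM, in the same place. Igfbp2 was last at 0.515 TPM, with virgin 8 alone at 4.07 TPM.
The 6 binding proteins summed to 258.6 ± 33.2 TPM in multiparous hearts and 227.8 ± 30.9 TPM in virgin hearts (SD, n = 8 each). TPM carries no TMM factors, so part of this difference may come from the scaling. Igf2r, for example, averaged 96.35 TPM in multiparous and 95.89 TPM in virgin hearts, but 411.8 and 428.1 CPM. Igfbp7 made up 37.7 ± 3.1% of this sum in multiparous hearts and 41.4 ± 4.7% in virgin hearts. Igfbp5 made up 32.7% in multiparous hearts and 32.8% in virgin hearts, and Igfbp4 made up 15.8% in multiparous hearts and 14.5% in virgin hearts. Igfbp3 took 8.38 ± 1.58% of the sum in multiparous hearts and 6.49 ± 1.47% in virgin hearts. The binding protein transcripts of this tissue were thus mostly Igfbp7 and Igfbp5 in both groups.

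**Figure D5:**
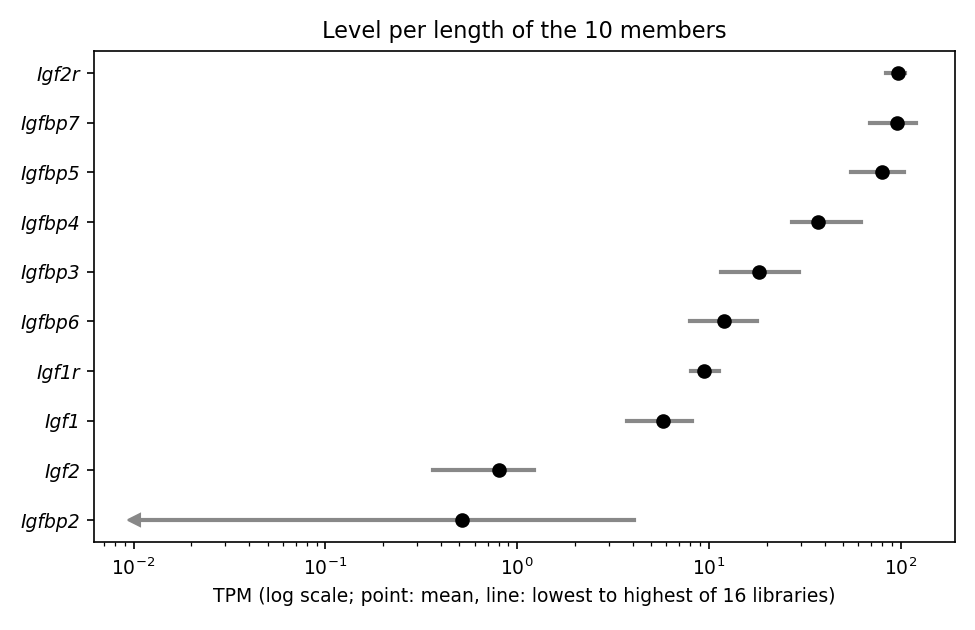
Level per length (TPM, log scale) of the 10 genes across the 16 libraries, ordered by their mean over these libraries. An arrow marks the virgin library in which Igfbp2 is at 0. Means run from 96.1 TPM for Igf2r to 0.515 TPM for Igfbp2, and Igf1 and Igf2 are the only neighbours whose libraries do not overlap.

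The genes were also compared with each other across the 16 libraries, on log2 CPM, in 36 pairs. None of the 36 passed Benjamini-Hochberg adjustment, by Pearson's r or by Spearman's rho. The highest r over all libraries was between Igfbp3 and Igfbp4, with r = 0.61 (permutation p = 0.011, adjusted p = 0.29) and rho = 0.59 (permutation p = 0.018, adjusted p = 0.25). It was 0.55 within multiparous hearts, 0.27 within virgin hearts, and 0.47 without multiparous 5 and 6, the libraries farthest from the median of Igfbp3. With the group means taken off it was 0.42 (permutation p = 0.10), and the highest pair was then Igfbp4 with Igfbp7, with r = 0.60 (permutation p = 0.0055, adjusted p = 0.20) and rho = 0.55 (permutation p = 0.024, adjusted p = 0.29). Igfbp3 and Igfbp6 gave r = 0.57 (permutation p = 0.024) and rho = 0.57 (permutation p = 0.024), with 0.39 within multiparous hearts, 0.29 within virgin hearts and 0.58 without the same libraries. The lowest was between Igf2r and Igfbp6, with r = -0.50 (permutation p = 0.048) and rho = -0.57 (permutation p = 0.024), and r = -0.45 without multiparous 4 and virgin 2.
Igf2 and the receptor that clears its protein, Igf2r, had a pooled r of -0.08 (permutation p = 0.76) and rho of -0.26 (permutation p = 0.33). Within multiparous hearts r was 0.63 and within virgin hearts it was -0.92, a difference that was not tested.

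Outside the family, the genes whose levels most resembled each member were ranked by r over the 16 libraries after the group means were taken off, among 13835 genes of at least 1 CPM. Igfbp4 was most like Fbln1, a matrix glycoprotein, with r = 0.89 and rho = 0.91, which averaged 110.2 CPM in multiparous hearts and 80.7 CPM in virgin hearts. Notch2, a receptor, also reached r = 0.89 with Igfbp4, and Nid2, a basement membrane protein gene, reached 0.89 with Igfbp7. For Igfbp6 the nearest was Nlrc3 (r = 0.91) and for Igfbp5 Cemip2 (0.82).
Igf1 was most like Fmr1 (r = 0.89), and Igf2 most like F2r, the thrombin receptor gene (0.90). Igf1r was most like Apc (0.92), and Igf2r most like the autophagy gene Atg2b (0.92). These are the highest of many correlations and describe the variation of these libraries, which also share depth and tissue makeup.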

How the data were processed

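RNA was sequenced in 16 left ventricular mid sections, 8 multiparous and 8 virgin, by stranded total RNA libraries after ribosomal RNA depletion, per the labels' protocols. The deposited values are whole-number counts per gene, 1 table per library. The submitters' processing notes name Trim Galore 0.6.10, STAR 2.7.11b, HTSeq 0.11.1 and the build GRCm38.p6. Which annotation and which strand option were used in counting is not given in the sources used here. Lines for reads not assigned to a gene, 26.5 to 33.1% of each library's total, were left out.

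Counts were scaled by TMM and tested with edgeR 4.0.16 (quasi-likelihood F-test, filterByExpr, group as the term, Benjamini-Hochberg adjustment over all 17813 genes kept, threshold 0.05). Intervals are 95% and come from that fit. DESeq2 1.42.0, limma 3.58.1 (voom), other scalings and filters, marker sums as covariates, each code alone and leaving out each library were alternatives. Fits were tested on simulated data. Lengths for TPM are the exonic bases in GENCODE M21, in which 98.1% of gene identifiers matched with their version. Correlations used log2 CPM with a prior count of 2 and 100000 resamples, two-sided. The floor for a count of 0 is 3 reads. Promoters are from RefSeq, and all 10 genes matched.

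The members and gene lists were chosen with earlier results of these data known. All 10 members are named, and of each other list up to 2 genes with the smallest p. For each member, the 2 most similar genes were ranked, with predicted genes passed over; 1 result of this ranking is not reported here.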

Additional observations from a re-analysis of the deposited data

Results flagged for a closer look

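Of 92 groups of libraries examined for a single value far from the rest, 4 held one, and chance gives about 1 in 20. Igfbp2 was at 3.76 CPM in virgin 8, where the next virgin library held 0.334 CPM. That library was also the deepest, and its liver marker sum of 228.2 CPM was 96.5% Ttr. In multiparous 5, Insr was at 430.4 CPM, where the next multiparous library held 365.2 CPM, and Gab1 was at 112.2 CPM, where the next held 99.3 CPM. Among the 4 MP-coded multiparous hearts, Stc1 was at 3.66 CPM in multiparous 3, where the next held 2.98 CPM.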

How the results depend on the processing

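Over all genes, 2 were called between multiparous and virgin hearts in edgeR. The count was 130 with DESeq2, 56 with no filter, 33 with a replicate block, 97 with P-coded hearts alone, 4 with the liver sum and 1 without virgin 1 and virgin 8. It was 0 with unscaled library totals, with the kidney tubule or fibroblast sum as a covariate, and with MP-coded hearts alone. Leaving out single libraries gave 0 to 55, the highest without virgin 7. Family genes called stayed at 0 except 1, Igfbp3, with DESeq2 and 1, again Igfbp3, with the replicate block (adjusted p = 0.047); leaving out single libraries gave 0. The replicate numbers do not pair the libraries: 1 of 8 same-numbered pairs had deviations correlated over 0.1 (range -0.11 to 0.29), and 1 of 8 correlated best with its own number. Without virgin 5, Igfbp3 had an adjusted p of 0.060. Between the codes the count ranged from 0 to 1, the 1 being Igfbp2 without multiparous 5, with the limit given above. No pair of genes passed as correlated under either other setting, and 8 of 10 genes kept their place in the order of levels with the longest transcript.

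Igfbp3, Igfbp4, Igfbp5, Igfbp6, Igf2 and Igf2r kept their direction in all 29 alternatives. Direction turned for the following, and the cause was not tested. Log2 fold changes were Igfbp7 0.021 with unscaled totals; Stc1 0.053 with limma voom and 0.0096 with the block. With the kidney tubule sum they were Igf1r -0.12, Igfals 0.061, Gab1 -0.044, Socs2 0.049, Stat5a -0.0070 and Airn -0.033. With the fibroblast sum they were Igf1 -0.057, Igf1r -0.089, Igfals 0.32 and Socs2 0.25. With MP-coded hearts alone Igf1 was -0.047 and Stc1 0.12; with P-coded hearts alone Igfbp7 was 0.024, Stc2 -0.052 and Socs2 0.0345. Without virgin 1 and virgin 8, Igf1r was -0.011, Igfbp7 0.013 and Stc1 0.020; with the liver sum Igf1 was -0.013. Both of these last settings were chosen after seeing the data. Leaving out single libraries gave -0.044 to 0.082 for Igf1, -0.059 to 0.023 for Igfbp7, -0.13 to 0.098 for Stc1 and -0.017 to 0.095 for Stc2. Between the codes it gave -0.28 to 0.013 for Igf1, -0.078 to 0.058 for Igf1r, -0.16 to 0.14 for Igfbp4 and -0.17 to 0.017 for Igfbp5. Depth limits Igfbp2, with 42 reads or fewer in 15 libraries.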
